A study of Mus musculus with 35 samples.

Results

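Superoxide dismutases, peroxiredoxins, thioredoxin and catalase form the chain of enzymes that clears reactive oxygen from a cell. The 10 genes considered here are Prdx1 to Prdx6, Txn1, Sod1, Sod2 and Cat, and their probe sets were found by the gene symbol that the annotation of the array assigns. Of 12422 probe sets, 10 belonged to a single gene of this list, and they stood for 7 genes: Prdx2 with 3 probe sets, Cat with 2, and Prdx3, Prdx4, Txn1, Sod1 and Sod2 with 1 each. A further 2 probe sets carried Prdx1 together with another gene and were not used, and Prdx1, Prdx5 and Prdx6 are not analysed here.

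Superoxide dismutases turn superoxide into hydrogen peroxide, Sod1 with copper and zinc in the cytosol and Sod2 with manganese in mitochondria. Peroxiredoxins and catalase then break down the peroxide: Prdx2 in the cytosol, Prdx3 in mitochondria, Prdx4 in the endoplasmic reticulum and the secretory pathway, and Cat in peroxisomes. Txn1, cytosolic thioredoxin, hands electrons to the cytosolic peroxiredoxins and keeps many other thiols reduced. Hematopoietic stem cells are known to keep low levels of reactive oxygen, and Prdx2 and Cat are also known as abundant enzymes of red cells.

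The arrays (Affymetrix MG-U74Av2) measured cDNA amplified from 1 or 10 sorted marrow cells of C57Bl/6 CD45.1 mice aged 7 to 9 weeks, male according to the labels of all groups but USP, for which no sex is given. Side population (SP) cells, which pump out the Hoechst dye, carried Sca-1 and lacked Gr-1: LSP samples A, B and M came from the lower part of the SP tail and USP samples N, O and Z from its upper part. CD8 samples B, C and D were bone marrow T lymphocytes positive for CD3 and CD8. Each of these 9 samples was a pool of 4 amplifications of 10 cells and was run on 2 arrays, so a sample is an average over cells, in which fewer cells with a transcript and less transcript per cell cannot be told apart. In a second experiment, 12 single SP cells from the tip of the tail (A to L) had 1 array each, as did 5 single-cell-equivalents (SCE, A to E). SCE are aliquots of 1 lysate of 40 SP cells, so they vary through aliquoting, amplification and array. Marrow came from 1 mouse per experiment, and which samples had the same mouse is not given in the labels, so p-values measure the spread between these samples alone, which may be technical.

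All levels below are log2 signal intensities. In ten-cell samples, levels under 7 were set to 7, called the floor, and duplicate arrays were averaged. In single cells and SCE no floor was set, and a level of 9 or more counted as detection. On 9 of the 12 SP arrays, but on no CD8 array, 24.6% to 32.1% of the deposited intensities were negative, so SP and CD8 arrays differ in part in the kind of values deposited. Member results of SP against CD8 are also given with that kind as a term in the fit. Those of other genes are given without it. T cell and stem cell markers fitted the labels of the sorted populations. The summed intensity of 14 T cell marker probe sets was 0 to 492 in LSP samples, 0 in all USP samples and 31455 to 37125 in CD8 samples, and that of 13 stem cell marker probe sets was 11577 to 13429 in LSP, 10489 to 13582 in USP and 0 in CD8 samples. CD8 sample B also carried markers of other cells: 11 B cell probe sets summed to 0 to 575 in LSP and 168 to 1667 in USP samples, and to 8903, 1970 and 0 in CD8 samples B, C and D, and 14 erythroid probe sets summed to 727 to 838 in LSP, 2582 to 4127 in USP and 2698, 0 and 0 in CD8 samples B, C and D.

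Of the 10 probe sets, 7 exceeded the floor on 1 or more of the ten-cell arrays. The other 3, for Prdx3 (96256_at) and an additional probe set each of Prdx2 (100330_at) and Cat (161877_f_at), stayed at the floor on all 18 ten-cell arrays and below detection in all 12 single cells and all 5 SCE. For these 3, detection in 0 of 12 cells has an exact 95% binomial interval of 0% to 26.5%. Prdx3, the mitochondrial peroxiredoxin, was therefore not detected with its probe set, and how well that probe set responds was not tested.

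The promoters of 4 genes are shown because the results below turn on them: Sod2 and Prdx4 were the members whose SP and CD8 levels did not overlap, and Sod1 and Txn1 were at a high level in every single cell. Prdx2 on 100331_g_at was likewise high in every single cell, but its promoter is not shown. Each run covers 250 bases before and 50 after the transcription start, read 5′ to 3′ along the gene, from the RefSeq annotation of mouse build GRCm38.p6. The start used for Prdx4 lies 3812 bases inside the annotated end of its gene, whereas those of Sod2, Sod1 and Txn1 are at the gene's own end. Capitals mark 4 motifs on either strand: the GC box GGGCGG, the CCAAT box, the TATA box TATAAA and the antioxidant response element core TGACNNNGC, and adjoining matches run together.
Sod2 (chr17:13007589-13007888, + strand): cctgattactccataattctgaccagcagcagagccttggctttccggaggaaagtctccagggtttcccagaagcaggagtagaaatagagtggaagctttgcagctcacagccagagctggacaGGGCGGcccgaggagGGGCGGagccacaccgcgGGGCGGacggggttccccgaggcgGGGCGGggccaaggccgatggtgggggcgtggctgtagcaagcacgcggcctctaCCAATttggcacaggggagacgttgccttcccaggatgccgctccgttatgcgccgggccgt
Prdx4 (chrX:155338411-155338710, - strand): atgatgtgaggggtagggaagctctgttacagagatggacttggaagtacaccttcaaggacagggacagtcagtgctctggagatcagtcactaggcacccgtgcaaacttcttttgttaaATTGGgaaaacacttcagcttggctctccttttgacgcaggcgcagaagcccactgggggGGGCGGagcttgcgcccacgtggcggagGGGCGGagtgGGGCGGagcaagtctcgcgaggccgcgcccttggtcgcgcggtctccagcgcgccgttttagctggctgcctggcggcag
Sod1 (chr16:90220512-90220811, + strand): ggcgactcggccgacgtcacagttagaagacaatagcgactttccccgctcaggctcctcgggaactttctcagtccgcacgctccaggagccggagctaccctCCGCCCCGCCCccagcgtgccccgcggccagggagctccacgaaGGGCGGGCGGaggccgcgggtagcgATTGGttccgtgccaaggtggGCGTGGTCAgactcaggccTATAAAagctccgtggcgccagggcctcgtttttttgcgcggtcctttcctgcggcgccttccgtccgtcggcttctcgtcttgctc
Txn1 (chr4:57956362-57956661, - strand): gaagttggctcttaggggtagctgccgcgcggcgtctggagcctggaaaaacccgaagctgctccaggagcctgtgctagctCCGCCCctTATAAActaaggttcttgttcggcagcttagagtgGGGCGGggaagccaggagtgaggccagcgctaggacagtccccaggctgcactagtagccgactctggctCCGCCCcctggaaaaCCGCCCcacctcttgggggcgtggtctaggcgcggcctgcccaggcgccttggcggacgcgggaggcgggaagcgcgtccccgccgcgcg

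The Sod2 promoter held 4 GC boxes, all on the strand of the gene, and 1 CCAAT box, and the Prdx4 promoter 3 GC boxes and 1 CCAAT box on the other strand. The promoters of Sod1 and Txn1 each held 4 GC boxes and a TATA box, at -37 from the start in Sod1 and at -160 in Txn1. Sod1 also held 1 CCAAT box on the other strand. The Prdx2 promoter, not shown, held 1 GC box on the other strand and no TATA box. The antioxidant response core was found in Sod1 alone of the 7 member promoters, on the strand opposite the gene. Over all 32851 promoters of the same length in the table, a GC box occurred in 35.7%, a CCAAT box in 37.4%, a TATA box in 13.6% and the response element core in 12.4%. The 4 promoters shown had a G and C content of 60.7% to 67.3%, against a median of 52.7% over all promoters. A match of letters is not evidence that a factor binds, and a missing match says only that these letters are not in the window.

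Whether SP cells differ from a resting blood cell type of the bone marrow was asked by comparing the 6 SP samples, as the mean of LSP and USP, with the 3 CD8 samples. Sod2 was higher in SP, and it was the only member to pass the test. Prdx4, the reticulum peroxiredoxin, and Txn1 had higher mean levels in SP, and Cat had a lower one, but none of these passed. The levels of Sod1 and of 1 Prdx2 probe set (100331_g_at) were high in both. Of the 7 probe sets tested, 1 was called higher and 0 lower at an adjusted p under 0.05 (limma, Benjamini-Hochberg adjustment over all 6823 probe sets tested); among all probe sets tested, 2.83% were called higher and 3% lower in SP. At an unadjusted p under 0.05, 3 members were higher (Sod2, Prdx4 and Txn1) and 1 lower (Cat), against 9.13% and 9.32% of all probe sets. The groups did not overlap for Sod2 and Prdx4, both higher in SP, and over all probe sets 5.53% were higher and 5.77% lower in SP without overlap. The median difference of SP minus CD8 was 0.19 over the 7 members and 0.04 over all probe sets tested.

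**Figure D1:**
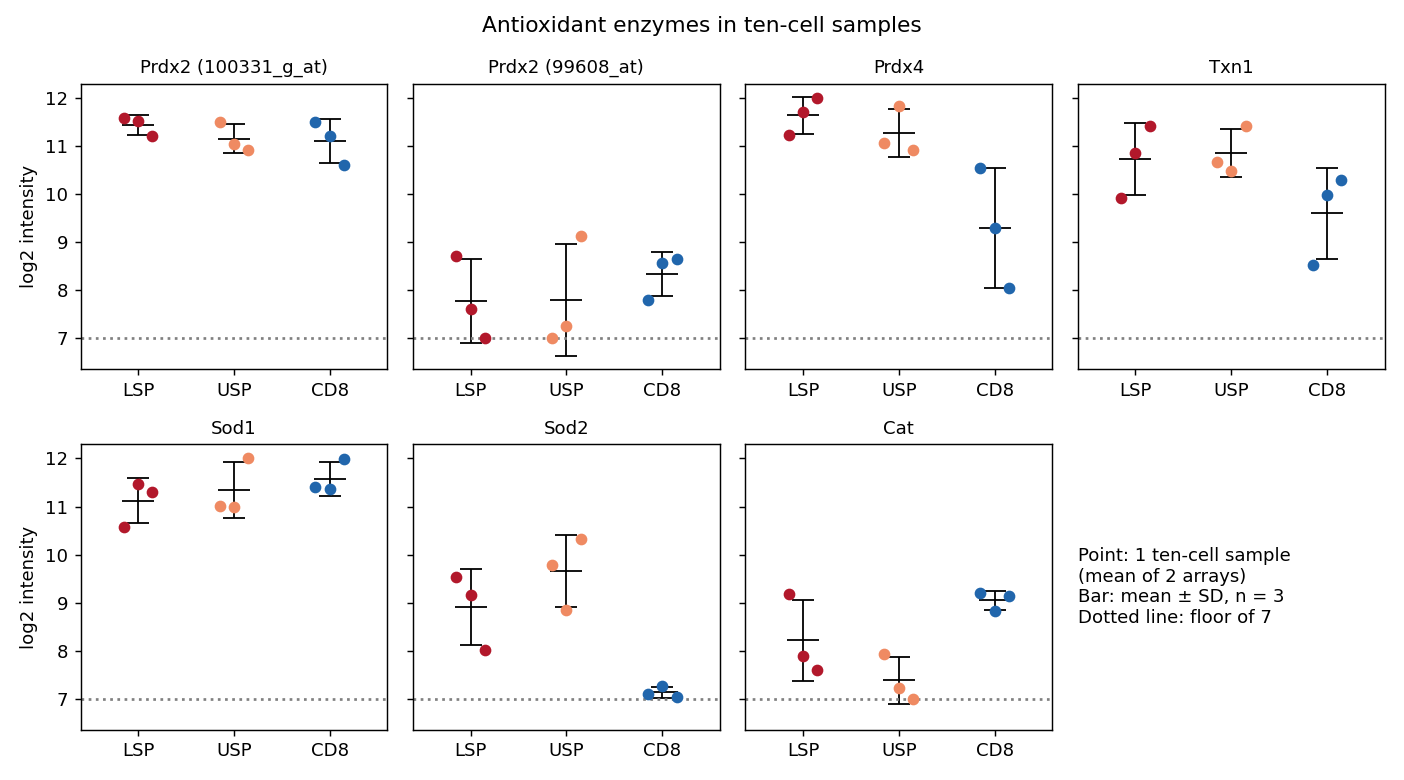
Log2 intensity of the 7 member probe sets above the floor, with 1 point per ten-cell sample, grouped as LSP, USP and CD8, and bars for the mean ± SD of 3 samples. Sod2 lies at 7.04 to 7.27 in the CD8 samples, next to the floor, and at 8.02 or more in all SP samples, whereas Sod1 and Prdx2 (100331_g_at) lie between 10.58 and 12.02 in every sample.

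Sod2 (chr17:13007839-13018119, probe set 96042_at) had levels of 9.54, 9.16 and 8.02 in LSP samples A, B and M, and 9.79, 8.85 and 10.33 in USP samples N, O and Z. In CD8 samples B, C and D it was at 7.10, 7.27 and 7.04. Every SP sample was above every CD8 sample, and the CD8 samples were all at or just above the floor. It averaged 9.28 ± 0.80 in SP samples (SD, n = 6) against 7.13 ± 0.12 in CD8 samples (SD, n = 3), a difference of 2.15 ± 0.42 (SE), or 4.43-fold (limma, adjusted p = 0.0332). Since 3 of the 6 CD8 arrays were at the floor, the size of this fold depends on where the floor is set: with a floor of 8 it was 1.29 on the log2 scale with an adjusted p of 0.145.

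The direction for Sod2 was the same in all 19 alternatives, with differences of 1.29 to 2.87. The call was lost without LSP sample A (adjusted p = 0.0509, limma) or B (0.0651), USP sample N (0.0676) or CD8 sample B (0.110), C (0.0981) or D (0.119), and with no filter on low levels (0.0951). With the kind of deposited values as a block the difference was 1.91 (limma, adjusted p = 0.0345), but this fit takes the 18 arrays singly, with an estimated correlation of duplicates. Over the 9 averaged samples, with the share of arrays of that kind as a covariate, it was 2.87 and was not called (limma, adjusted p = 0.0607), a fit chosen after seeing the data. Over the arrays without negative values alone it was 2.50, where LSP has 1 array and USP 1 sample, so that all spread comes from CD8 samples and no p is given.

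Markers of granulocytes and monocytes, cells in which Sod2 is also inducible, had a higher summed signal in every SP sample than in every CD8 sample. Of their 17 probe sets, 6 were above the floor in an LSP sample, 9 in a USP sample and 4 in a CD8 sample. Their summed intensity was 2135, 3410 and 5564 in LSP samples A, B and M, 7005, 17272 and 6022 in USP samples N, O and Z, and 453, 0 and 1674 in CD8 samples B, C and D. Within LSP and within USP the order ran the other way: LSP sample M and USP sample O had the highest sum and the lowest Sod2 level of their population. The part of such cells in the Sod2 level was not tested. Of the 10 marker probe sets tested, 1 was called higher in SP and 0 lower (limma), against 2.83% and 3% of all probe sets. Csf1r (104354_at) had the lower mean in SP, 7.12 against 7.77 in CD8, and was not called. S100a8, a calcium-binding protein of neutrophils, averaged 11.09 ± 0.83 in SP (SD, n = 6) and 7.31 ± 0.54 in CD8 (SD, n = 3; limma, adjusted p = 0.00572). The granule proteins were not alike: Mpo and Elane were at the floor in all 9 samples, while Prtn3 averaged 8.46 in SP. Lcn2 (160564_at), Camp, Ngp and Ltf were at the floor in LSP samples and reached 12.74, 10.91, 10.62 and 9.81 in their highest USP sample. Their USP means were 9.66 ± 2.89, 8.30 ± 2.26, 8.36 ± 1.97 and 7.94 ± 1.62 (SD, n = 3), so these signals were uneven between USP samples. Camp and Ltf were above the floor in a single USP sample. Prtn3, Lcn2, Camp, Ngp and Ltf were at the floor in all CD8 samples, and none of them was called.

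The genes whose ten-cell pattern was most like that of Sod2 were Eif4ebp1, a repressor of cap-dependent translation (Pearson r = 0.97 over 9 samples), Basp1, a membrane-associated signalling protein (r = 0.96), and Cd34, a sialomucin of blood progenitors and endothelium (r = 0.96), out of 6112 other probe sets of a single gene. Eif4ebp1 and Cd34 averaged 9.88 and 9.45 in SP and were at the floor in all CD8 samples. The likeness includes the step between SP and CD8 that these genes share.

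Prdx4 (chrX:155323918-155342272, 93495_at) had levels of 11.23, 11.69 and 11.99 in LSP samples A, B and M, 11.06, 11.82 and 10.90 in USP samples N, O and Z, and 10.54, 9.29 and 8.05 in CD8 samples B, C and D. All SP samples were above all CD8 samples, but the CD8 samples spread over more than 2 log2 units. The means were 11.45 ± 0.45 in SP (SD, n = 6) and 9.29 ± 1.24 in CD8 (SD, n = 3), a difference of 2.16 ± 0.53 (SE), which did not pass the threshold (limma, adjusted p = 0.0704). The difference stood at 1.54 to 2.78 in all 19 alternatives and passed in 5 of them. In 3 of the 5, among them the kind of values as a block (2.15, limma, adjusted p = 0.0108), the 18 arrays were fitted singly, and over the averaged samples, with kind as a covariate, it was 1.86 and did not pass (adjusted p = 0.382). It also passed without CD8 sample B (2.78, adjusted p = 0.0236), the sample with the most B cell marker signal and the highest CD8 level of Prdx4; the part of those cells in it was not tested.

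Txn1 (chr4:57943373-57956411, 92807_at) was at 9.92, 10.86 and 11.40 in LSP samples A, B and M and at 10.66, 10.47 and 11.41 in USP samples N, O and Z. In CD8 samples B, C and D it was at 8.51, 9.98 and 10.28, so that the groups overlapped through LSP sample A. The difference of 1.19 ± 0.50 (SE), from means of 10.79 in SP and 9.59 in CD8, was not called (limma, adjusted p = 0.266), nor was it in any of the 19 alternatives, where it ranged from 0.65 to 1.76. The lowest value was the one without CD8 sample B, which had the lowest Txn1 level. The highest was the one with kind as a covariate over the averaged samples.

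Cat (chr2:103453904-103485153, 160479_at) went the other way. It was at 9.18, 7.89 and 7.59 in LSP samples A, B and M, at 7.93, 7.24 and 7 in USP samples N, O and Z, and at 9.20, 8.82 and 9.14 in CD8 samples B, C and D. The 3 CD8 samples were close together and above 5 of the 6 SP samples, while LSP sample A lay among them. The means were 7.80 ± 0.76 in SP (SD, n = 6) and 9.05 ± 0.20 in CD8 (SD, n = 3), a difference of -1.25 ± 0.38 (SE) with an adjusted p of 0.131 (limma). Without LSP sample A the difference was -1.49 and passed (adjusted p = 0.0245), as it did with quantile normalization (-1.28, adjusted p = 0.0450). With kind as a covariate over the averaged samples it was -1.75 and did not pass (adjusted p = 0.195).

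Sod1 (chr16:90220762-90226333, 100538_at) was at 10.58, 11.46 and 11.30 in the LSP samples A, B and M, at 11.02, 11.00 and 12.02 in the USP samples N, O and Z, and at 11.40, 11.35 and 11.98 in the CD8 samples B, C and D. All groups overlapped. The difference was -0.35 ± 0.32 (SE; limma, adjusted p = 0.653), and its sign turned with the kind of values as a block (0.045) or a covariate (0.41) and over the arrays without negative values (0.28), so no direction is given for Sod1.

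Prdx2 (chr8:84969622-84974811) had 2 probe sets above the floor, with unlike results, while 100330_at stayed at the floor in all 9 samples. The high one, 100331_g_at, was at 11.59, 11.52 and 11.21 in LSP samples A, B and M, at 11.50, 11.03 and 10.92 in USP samples N, O and Z, and at 11.50, 11.20 and 10.60 in CD8 samples B, C and D, with a difference of 0.19 ± 0.23 (SE) between SP and CD8 (limma, adjusted p = 0.736). With kind as a covariate over the averaged samples the difference was 0.017. The low one, 99608_at, ranged from 7 to 9.13 in SP samples and from 7.80 to 8.64 in CD8 samples, and its difference was -0.55 ± 0.58 (SE; adjusted p = 0.699), with the sign turned when kind was a covariate (0.58). Over the 9 samples the levels of the 2 probe sets had a Pearson r of -0.36, so they did not rank the samples alike.

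**Figure D2:**
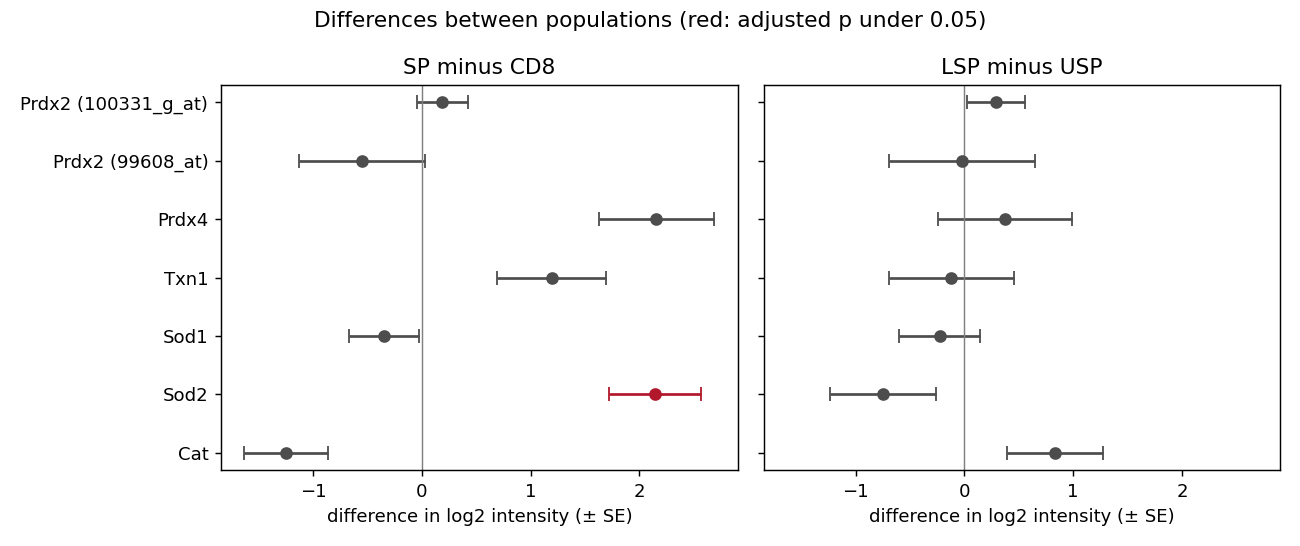
Difference in log2 intensity ± SE for each member probe set, SP minus CD8 on the left and LSP minus USP on the right, with the value in red where the adjusted p was under 0.05. Sod2, at 2.15 in SP minus CD8, is the only red point, and no LSP minus USP difference exceeds 0.83 in size.

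Within the SP, the lower tail was set against the upper tail. No member passed the test (0 of 7, limma), and 0 had an unadjusted p under 0.05. Over all 6823 probe sets 0.0293% were called higher and 0.0733% lower in LSP, and at an unadjusted p under 0.05 these shares were 3.18% and 2.81%. The LSP and USP samples overlapped for all 7 members, and 3.09% of all probe sets were higher and 2.89% lower in LSP without overlap. Cat differed by 0.83 ± 0.44 (SE), with a mean of 8.22 ± 0.84 in LSP and 7.39 ± 0.48 in USP (SD, n = 3 each; adjusted p = 0.876). Sod2 differed by -0.75 ± 0.49 (SE), with 8.91 ± 0.79 in LSP and 9.66 ± 0.75 in USP (adjusted p = 0.876). Both values moved with single samples: without LSP sample A the Cat difference was 0.35 and that of Sod2 was -1.07, and leaving out other samples gave -1.15 to -0.30 for Sod2, with the smallest size without LSP sample M.

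The differences of the other members between LSP and USP lay between -0.23 and 0.38, each smaller than its standard error or close to it. Prdx4 averaged 11.64 ± 0.38 in LSP and 11.26 ± 0.49 in USP, Txn1 10.73 ± 0.75 in LSP and 10.85 ± 0.49 in USP, and Sod1 11.12 ± 0.47 in LSP and 11.34 ± 0.58 in USP (SD, n = 3 each). The standard errors of the LSP minus USP differences were 0.27 to 0.67, and a difference that did not pass is not shown to be absent.

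Among related genes, the thiol and glutathione branch had 1 of 21 tested probe sets higher in SP than in CD8 and 0 lower, with a median difference of 0.46 against 0.04 over all probe sets. The called gene was Glrx, glutaredoxin, which reduces protein-glutathione mixed disulfides: it averaged 9.97 ± 0.82 in SP (SD, n = 6) and 7.03 ± 0.05 in CD8 (SD, n = 3), a difference of 2.94 ± 0.45 (SE; limma, adjusted p = 0.0131). Idh2, a mitochondrial source of NADPH (10.05 in SP and 7.84 in CD8), Msrb1, a methionine sulfoxide reductase (9.61 in SP and 7.57 in CD8), and Txnip, an inhibitor of thioredoxin (8.85 in SP and at the floor in all CD8 samples), were not called, with adjusted p-values of 0.296, 0.241 and 0.105 (limma). The other Txnip probe set, 160548_at, was at the floor in all SP and CD8 samples. The largest difference the other way was that of Txn2, mitochondrial thioredoxin. It averaged 9.39 ± 1.43 in SP (SD, n = 6) and 11.20 ± 0.14 in CD8 (SD, n = 3) and was not called (limma, adjusted p = 0.342).

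The list of superoxide, metal and stress response genes had 0 of 18 tested probe sets called in either direction (limma; 1 higher and 1 lower at an unadjusted p under 0.05), and its median difference was 0.05. Its largest differences were -1.05 for Atm, a kinase of the DNA damage response, which was at the floor in all SP samples and averaged 8.05 in CD8, 0.98 for Mapk14, the stress-activated kinase p38 (10.99 in SP and 10.01 in CD8), and -0.69 for Ccs, the copper chaperone of Sod1 (7.05 in SP and 7.73 in CD8). None passed (limma, adjusted p from 0.167 to 0.508). The Ccs value is of 103909_at, which spread from 7 to 9.04 in CD8 samples. The other Ccs probe sets were at the floor in all CD8 samples and averaged 7 to 7.05 in SP.

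NADPH oxidase subunits, which produce superoxide, had 2 of 6 tested probe sets lower in SP and 0 higher, against 3% and 2.83% of all probe sets. Cyba, the p22 subunit of the membrane complex, averaged 7.97 ± 1.04 in SP and 10.84 ± 0.13 in CD8 on 100059_at (limma, adjusted p = 0.0384), and 8.67 ± 0.80 in SP and 10.29 ± 0.12 in CD8 on its other probe set, which was not called (0.0737; SD, n = 6 and 3). Rac1, a small GTPase with many functions besides the oxidase, averaged 11.01 ± 0.21 in SP and 11.81 ± 0.05 in CD8 (SD, n = 6 and 3; adjusted p = 0.0140). Ncf4 and Ncf1, cytosolic subunits, differed by -0.54 and 0.12 and were not called. Rac2, another GTPase of the list, averaged 11.28 in SP and 11.19 in CD8 and was not called (limma, adjusted p = 0.860). Cybb, a further subunit, was at the floor in all SP and CD8 samples and was not tested. Between LSP and USP 0 probe sets of these 3 lists were called (limma; 0 also at an unadjusted p under 0.05).

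The second experiment asked how single SP cells vary beyond the technical spread seen in SCE. Sod1, Txn1 and Prdx2 (100331_g_at) were detected in all 12 single cells and all 5 SCE, Prdx4 in some cells and not in others, and Sod2, Cat and the low Prdx2 probe set in few cells. Of the 4215 probe sets that any single cell showed, 4.37% were detected in all 12; of the 7 such member probe sets, 3 were. Detection in all 12 cells has an exact 95% binomial interval of 73.5% to 100%, which covers counting error only.

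**Figure D3:**
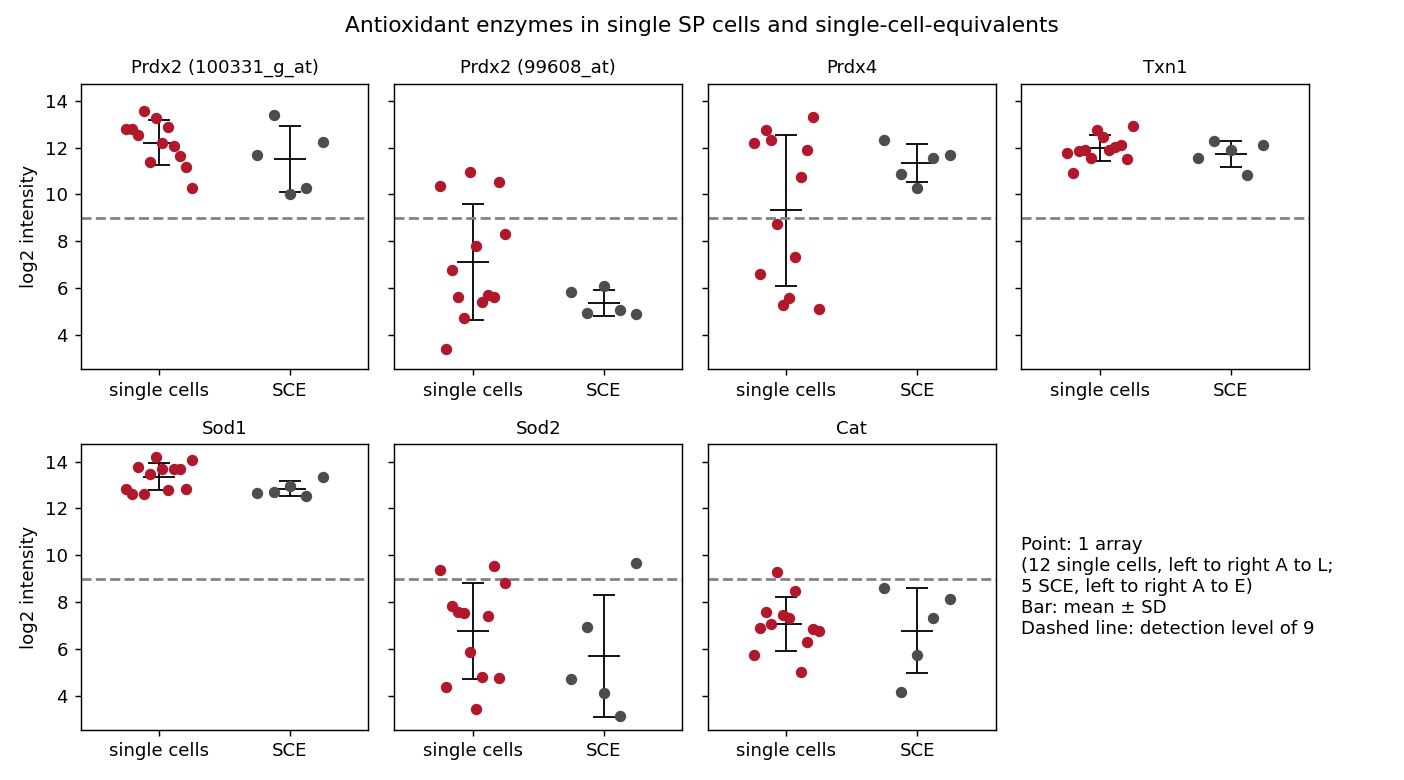
Log2 intensity of each member probe set in 12 single SP cells and in 5 SCE, 1 point per array, with bars for the mean ± SD and a dashed line at the detection level of 9. Prdx4 is above 10 in 6 cells and below 9 in the other 6, while all 5 SCE are at 10.27 or more; Sod1 and Txn1 stay above 10.9 in every single cell.

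Sod1 was high in every cell and every aliquot. It ranged from 12.59 in cell D to 14.18 in cell F, with a median of 13.56, and from 12.54 to 13.34 in SCE, with a median of 12.69. The SD was 0.58 over the single cells and 0.32 over the SCE. Txn1 ranged from 10.92 in cell B to 12.93 in cell L, with a median of 11.90, and from 10.85 to 12.28 in SCE (median 11.89), with SDs of 0.55 over single cells and 0.56 over SCE.

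The main Prdx2 probe set ranged from 10.28 in cell L to 13.54 in cell D, with a median of 12.37, and from 10.00 to 13.40 in SCE, with a median of 11.68. Its SD was 0.95 over single cells and 1.41 over SCE, so the aliquots of 1 lysate spread as widely as the cells did. Prdx2 is a major protein of red cells, and of 14 erythroid probe sets, among them those of hemoglobin, 2 were detected in any single cell and 3 in any SCE, with sums of 0 to 2103 in single cells and 3464 to 11495 in SCE; the part of red cell RNA in the Prdx2 level was not tested.

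Prdx4 split the cells. It was at 12.22, 12.77, 12.32, 10.74, 11.91 and 13.33 in cells A, C, D, I, J and K, at 8.74 in cell E, and at 6.60, 5.27, 5.60, 7.32 and 5.12 in cells B, F, G, H and L. In the SCE it was at 12.33, 10.88, 10.27, 11.54 and 11.69 in A to E. It was thus detected in 6 of 12 single cells (50%, exact 95% binomial interval 21.1% to 78.9%) and in 5 of 5 SCE, and the undetected cells, at up to 8.74, lay below the lowest SCE.

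The spread of Prdx4 was 3.21 over single cells and 0.79 over SCE (SD). Its biological proportion, the share of the variance between single cells that a maximum likelihood fit assigns to the cells and not to the spread seen in SCE, was 0.958, and 5.46% of the 4215 probe sets were above 0.95. The exact, 1-sided permutation test of the spread gave p = 0.0210 for Prdx4 and an adjusted p of 0.497, so it was not called. No probe set was called in this test (0% of 4215), and 9.68% had an unadjusted p under 0.05.

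The Prdx4 level of a cell moved with the number of probe sets detected in it, with a Pearson r of 0.70 and a Spearman rho of 0.65 over the 12 cells. Those numbers were 1398, 1283, 1287, 1305, 1330 and 1489 in cells A, C, D, I, J and K, 1320 in cell E, and 1194, 1199, 1300, 1254 and 1245 in cells B, F, G, H and L. The ranges overlapped from 1283 to 1320. The 5 SCE, all with Prdx4 detected, had 1351 to 1563 (median 1495), against 1194 to 1489 (median 1293.5) in the 12 single cells. The part of amplification depth in the Prdx4 signal, and in its contrast between cells and SCE, was not tested.

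**Figure D4:**
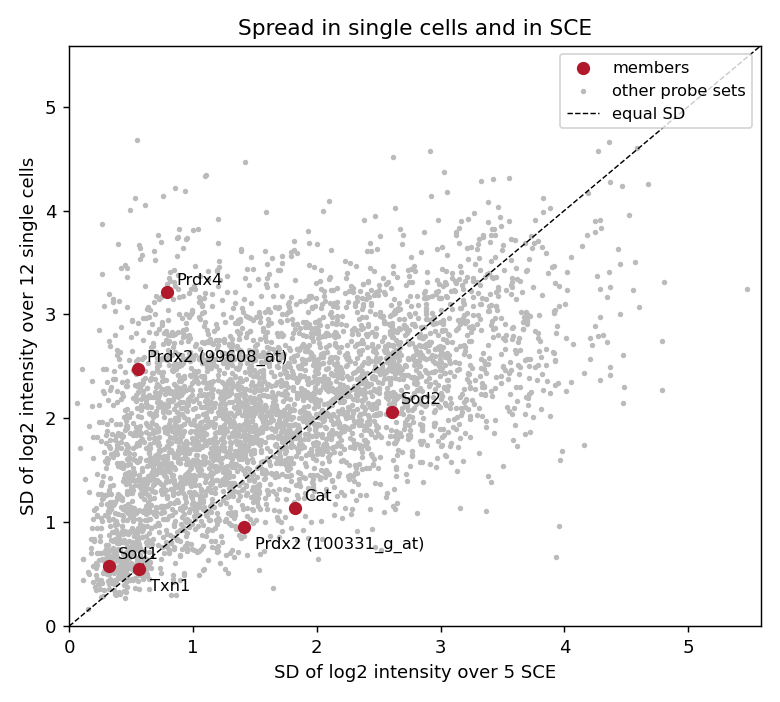
SD of log2 intensity over 12 single cells against the SD over 5 SCE, with 1 point for each of 4215 probe sets detected in a single cell and the 7 members in red. Prdx4 (3.21 against 0.79) and the low Prdx2 probe set (2.48 against 0.56) lie well above the dashed line of equal spread, and Sod1, Txn1, Cat, Sod2 and Prdx2 (100331_g_at) lie on either side of it within 1.

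The low Prdx2 probe set, 99608_at, was detected in cells A, F and K at 10.38, 10.94 and 10.52 and reached 8.32 at most in the other 9, while all 5 SCE were at 4.91 to 6.11. Its biological proportion was 0.968 (exact permutation p = 0.0422, adjusted p = 0.503), a value that rests on SCE levels below detection. The high Prdx2 probe set was at 12.81, 13.26 and 11.18 in the same cells, neither the highest 3 nor the lowest 3 of the 12, and 100330_at was at 5.38 or less in all 12. The low and the high probe set had a Pearson r of -0.09 over the 12 cells.

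Sod2 was detected in 2 of 12 single cells, A at 9.36 and J at 9.52, followed by L at 8.83, and was at 7.81 or less in the other 9. Among SCE only E was detected, at 9.65, and the others were at 3.14 to 6.95. The SDs were 2.06 over single cells and 2.61 over SCE, and the biological proportion was 0. The 6 ten-cell SP samples, from 40 cells each, were at 8.02 to 10.33. Levels of the ten-cell and the single-cell experiment come from different amplifications and were not tested against each other.

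Cat was detected in 1 of 12 single cells, E at 9.30, and in 0 of 5 SCE, whose highest level was 8.60. The other cells ranged from 5.02 to 8.47, and the proportion was 0, with SDs of 1.14 over single cells and 1.82 over SCE. In the ten-cell SP samples Cat was also low, at 7 to 9.18.

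Across the members, 3 of 7 had a biological proportion of at least 0.5 (Prdx4, Prdx2 on 99608_at, and Sod1 with 0.632), against 41.6% of all 4215 probe sets, so the share among members was near the background. The proportion of Sod1 fell below 0.5 with quantile normalization (0.381) and without SCE B (0.465) or C (0.324), and that of Txn1, 0 over all arrays, was 0.736 without SCE D. No member had a different mean in single cells and SCE (0 of 7, limma, 0 also at an unadjusted p under 0.05), and among 4659 probe sets tested 0% were called higher and 0.0429% lower in single cells (1.76% and 3.93% unadjusted). The largest mean differences were -2.02 ± 1.38 (SE) for Prdx4, with 9.33 in single cells and 11.34 in SCE, and 1.74 ± 1.09 for Prdx2 on 99608_at, with 7.11 in single cells and 5.37 in SCE.

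Between members, Sod1 and Txn1 had the highest correlation over the 12 single cells, with a Pearson r of 0.77 and a Spearman rho of 0.68. Cells F and L were the highest 2 for both genes, and cell B was among the lowest 2 for both. Over the 9 ten-cell samples the r of this pair was 0.24. The lowest of the 21 pairs over single cells was Prdx4 with Txn1 (r = -0.42, rho = -0.55), and all values of 1 cell share its amplification and the scaling of its array. In ten-cell samples Txn1 and Cat ran opposite (r = -0.78, rho = -0.88 over 9 samples), which includes the step between SP and CD8.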

How the data were processed

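The deposited table holds linear signal intensities of 35 arrays, each scaled so that its mean is near 250 after 2% of values are trimmed at each end. The authors' methods name Microarray Suite (MAS5) for the collection of raw probe intensities and RMA for levels on the log2 scale, which these intensities are not; which software gave the deposited values is not given in the sources used here. The members, gene lists, floor and detection level were chosen with earlier results of these data known. Control probe sets were left out. Ten-cell levels were set to at least 7 (intensity 128), the mean of duplicate arrays was taken, and 6823 probe sets that exceeded the floor on any array entered a limma fit (version 3.58.1, R 4.3.3) with a mean for each population. Probe sets at 9 or more on at least 1 of 17 single-cell or SCE arrays had their means compared likewise, and those at 9 or more in at least 1 single cell had a variance fit with 1 mean and an exact permutation test over 6188 splits. The other tools were Python 3.11.15, pandas 2.3.3, scipy 1.17.1, numpy 2.4.6 and matplotlib 3.10.9. In simulated data for SP against CD8 and for LSP against USP, values set to the floor raised the share of false calls, so calls near the floor, such as that of Sod2, are less certain.

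Named genes were all member probe sets, genes of 3 related lists that passed a test with up to 3 more of each list by the size of SP minus CD8, and the 3 genes most like each called member. Duplicate arrays had a Pearson r of 0.953 to 0.994 over all probe sets. The alternatives were other floors, filters, detection levels and normalization, arrays fitted singly or with blocks, the kind of values as a covariate, arrays of 1 kind, and leaving out each sample.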

Additional observations from a re-analysis of the deposited data

How the results depend on the processing

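The count of members called between SP and CD8, 1 in the fit as reported, was 0 with a floor of 8, with no filter and with kind of values as a covariate over averaged samples (added after seeing the data), 2 with a filter of 3 samples above the floor, with quantile normalization, with arrays fitted singly, with the kind of values as a block and over arrays without negative values alone, and 4 at an unadjusted p under 0.05. With the array number as a replicate block it was 2, Sod2 and Prdx4; the labels number arrays within a sample, so the number does not pair samples between groups. This fit, the block by kind and the arrays fitted singly use 18 arrays in place of 9 samples, and the arrays without negative values leave LSP and USP 1 sample each. Leaving out 1 sample gave 0 to 1 calls. Between LSP and USP the count of 0 became 1 over arrays without negative values alone, lower in LSP for Sod2 (-1.40, adjusted p = 0.0338, limma), a fit with 1 LSP array against 1 USP sample whose spread is assumed to be that of the CD8 samples.

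Some small differences turned sign. With the kind of values as a block, SP minus CD8 was 0.045 for Sod1, as a covariate 0.41, and over arrays without negative values 0.28; as a covariate it was 0.58 for Prdx2 on 99608_at. Leaving out 1 sample gave -0.059 to 0.39 for Prdx2 on 100331_g_at, below 0 only without CD8 sample D. In LSP minus USP, over arrays with negative values alone, Sod1 was 0.030, Txn1 0.12 and Prdx2 on 99608_at 0.67, and with kind as a covariate Txn1 was 0.0059 and 99608_at 0.23. Leaving out 1 sample there gave -0.40 to 0.11 for Sod1 and -0.46 to 0.28 for Txn1, above 0 without LSP sample A or USP sample Z, and -0.49 to 0.65 for 99608_at, above 0 without LSP sample B, LSP sample M or USP sample Z. In single cells minus SCE, Cat was -0.17 with a floor of 7 and -0.38 to 0.73 without 1 array, below 0 only without SCE B. None of these had an adjusted p under 0.05, and the cause was not tested. Calls of mean and of spread between single cells and SCE stayed at 0 in all alternatives run, and detection in all 12 cells at 3 members; the count of members with a proportion of at least 0.5 was 2 to 4. With a detection level of 10, Sod2 and Cat were detected in 0 cells.

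The main limits are the small number of samples, the closeness of Sod2 and Cat to the floor, where the scale of signal is compressed, and the deposited negative values, which only SP arrays hold.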

Other observations

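Of the related genes, Glrx was detected in 5 of 12 single cells and in 0 of 5 SCE, and Txnrd1, thioredoxin reductase, in 0 of 12 and 0 of 5, although it averaged 8.90 ± 1.03 in ten-cell SP samples (SD, n = 6) and 7.05 ± 0.09 in CD8 samples (SD, n = 3; limma, adjusted p = 0.158). Txnl1, a thioredoxin-like protein of the proteasome, Fth1, ferritin heavy chain, Rac1 and Rac2 were detected in all 12 single cells and all 5 SCE. Txn2, Txnrd1, Txnl1, Fth1, Rac2 and Cybb, and Csf1r, Prtn3, Lcn2, Camp, Ngp and Ltf of the granulocyte and monocyte markers, were chosen after their values were seen.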
